A study of Mus musculus with 35 samples.

Results

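The expression of 8 transcription factors of the trophectoderm, the outer layer of the blastocyst that gives rise to the placenta, was followed in mouse embryonic stem (ES) cells driven towards primitive endoderm (PrE) by GATA6. The factors were Cdx2, Eomes, Ascl2, Elf5, Tfap2a, Tfap2c, Tead4 and Hand1. They were taken by gene symbol, whatever their values, and are 8 of the 44853 genes in the induction table. The siRNA table held 6 of them among its 6275 genes, and did not list Elf5 or Tfap2a. That table is restricted to genes which the authors had called responsive to GATA6.

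The inducible cells were KH2 ES cells of mixed C57BL/6 and 129/Sv background with a cassette that expresses HA-tagged GATA6 upon doxycycline (Dox), and the lines were single clones. The induction series held 3 libraries each of untreated cells (0 h) and of cells kept for 16, 24, 48, 72, 96 or 168 h in Dox (1 µg/mL), plus 2 libraries of wild-type XEN cells (line X10, CD1 background), a stem cell line of extra-embryonic endoderm that served as the PrE reference and was grown without LIF. In the siRNA series, inducible cells of clone G6.3 were nucleofected and collected after 48 h of Dox, 6 libraries with a control siRNA (siCTL) and 6 in which Oct4 was targeted (siOct4), the product of Pou5f1. ES cells grew with LIF and serum on mitomycin-treated fibroblast feeders, which were adsorbed before lysis. The study describes the replicates as independent experiments. These are bulk samples, so fewer cells of a type and less RNA per cell cannot be told apart.

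Trophectoderm is the first lineage set aside in the mouse embryo. TEAD4, with its coactivators YAP1 and TAZ, switches on Cdx2 in outer cells, and CDX2 and the T-box factor EOMES maintain the trophoblast stem cell state, where the ETS factor ELF5 and the AP-2 factor TFAP2C reinforce them. ASCL2 and HAND1, both basic helix-loop-helix factors, act later, in the spongiotrophoblast and in trophoblast giant cells. OCT4 and CDX2 are known to oppose each other, and ES cells that lose OCT4 can take on trophoblast features, which is the question that siOct4 addresses for these genes. Several of the factors also work elsewhere: TFAP2C in pluripotent and germ cells, EOMES in the primitive streak and visceral endoderm, HAND1 in mesoderm.

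Values are TPM (a transcript's share of its library, scaled to a fixed total), a per-length unit that allows levels to be compared between genes, and the sequencing depth behind them is unknown. In the induction series 12045 to 13120 genes per library had at least 1 TPM, and Pearson correlations between its replicates across genes were 0.973 to 0.993. Gata6, with its transgene and the endogenous gene counted together, stood at 0.264 ± 0.0978 TPM (SD, n = 3) at 0 h and 344.4 ± 26.2 TPM (SD, n = 3) at 168 h. All 10 PrE markers of the list used here were called higher from 48 h on and in XEN cells, beside 9.14% to 22.6% of all genes. Replicates of the siRNA series were less alike (0.929 to 0.99), the closest being libraries 1 and 2 and libraries 5 and 6 of each group and libraries 3 and 4 of siOct4 (0.978 to 0.99, against at most 0.969 for the others), and the first principal component placed siCTL 3 at 47.8 and siOct4 3 at 47.6 against -30.2 to 24.7 for the other 10 libraries. The labels do not say whether such libraries share an experiment. The siRNA results are therefore also given without libraries 3 and 4, without libraries 5 and 6, and with consecutive libraries averaged.

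The promoters of 3 members are shown, whose RNA rose at different times: Ascl2 early, Eomes from 48 h and Cdx2 at 72 h. No promoter was available for Tfap2c, Tead4 or Hand1, and those of Elf5 and Tfap2a, which were not tested, are left out. Ascl2 was to be printed as a member called at 168 h, while Cdx2 and Eomes were added after their values were seen. Each line holds the 250 bases before the RefSeq start (GRCm38.p6), 5′ to 3′ on the strand of the gene, at chr7:142969265-142969514 (minus strand) for Ascl2, chr9:118477939-118478188 (plus strand) for Eomes and chr5:147307250-147307499 (minus strand) for Cdx2. Capitals mark matches to the motifs named after them.
Ascl2: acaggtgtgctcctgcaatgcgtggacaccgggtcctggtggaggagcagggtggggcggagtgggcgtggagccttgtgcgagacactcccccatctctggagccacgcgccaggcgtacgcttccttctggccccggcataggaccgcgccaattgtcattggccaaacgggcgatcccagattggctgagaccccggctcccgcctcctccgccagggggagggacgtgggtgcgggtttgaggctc
Eomes: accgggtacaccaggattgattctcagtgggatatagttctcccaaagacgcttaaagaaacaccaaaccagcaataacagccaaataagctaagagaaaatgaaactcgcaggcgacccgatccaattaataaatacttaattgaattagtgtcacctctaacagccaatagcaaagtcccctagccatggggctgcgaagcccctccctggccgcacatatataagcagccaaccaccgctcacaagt
Cdx2: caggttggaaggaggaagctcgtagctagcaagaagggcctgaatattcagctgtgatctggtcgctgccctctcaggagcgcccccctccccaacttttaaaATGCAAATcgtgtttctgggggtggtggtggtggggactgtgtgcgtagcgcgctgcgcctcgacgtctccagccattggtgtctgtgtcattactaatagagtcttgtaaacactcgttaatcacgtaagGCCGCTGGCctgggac
The motifs searched on both strands were the GATA motif (AGATAA, then TGATAA, then AGATAG, then TGATAG), the octamer of OCT4 (ATGCAAAT), the TEAD motif (GGAATG) and the AP-2 motif (GCCNNNGGC). The Cdx2 window held an octamer that begins 147 bases before the start and an AP-2 match that begins 16 bases before it. Neither the Ascl2 nor the Eomes promoter held any of the 4 motifs. Of all 32851 promoters of this length in the table, 26.5% held a GATA match, 1.6% an octamer, 12.6% a TEAD match and 13.7% an AP-2 match. The GC content was 67.6% for Ascl2 with 19 CpG, 55.2% for Cdx2 with 13 CpG and 46.4% for Eomes with 8 CpG, against medians of 52.4% and 6 CpG over all promoters.

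GATA6 induction was followed by a passing rise of Ascl2, Eomes, Cdx2 and Hand1, a lasting rise of Tead4 and a steady fall of Tfap2c, while Tfap2a and Elf5 stayed under 1 TPM in every library. The rises did not peak together. Ascl2 was highest at 48 h, Cdx2 and Hand1 at 72 h, and Eomes and Tead4 at 96 h. By 168 h Ascl2 and Tfap2c were below their level in untreated cells, and in XEN cells only Tead4 of the 8 had a mean above 1 TPM.

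**Figure D1:**
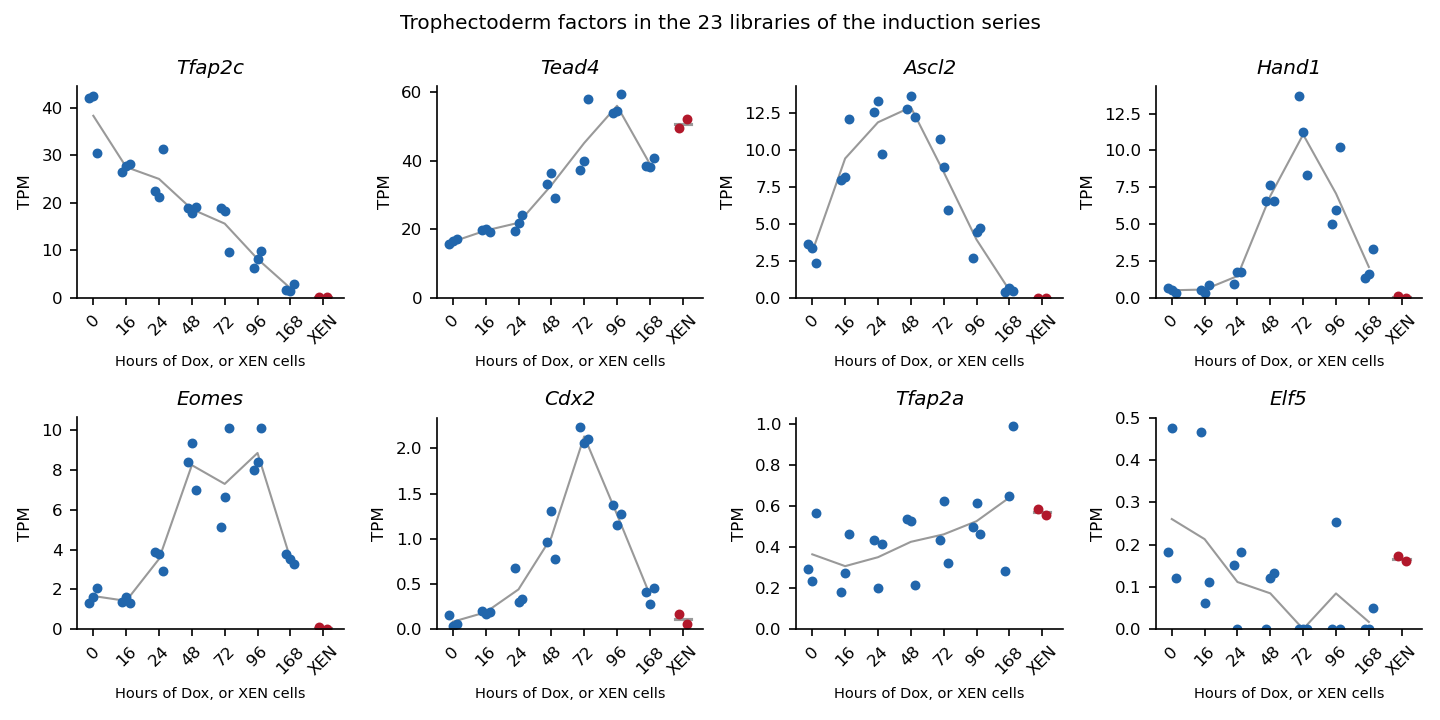
TPM of the 8 factors (vertical axes, scaled separately) in each library of the induction series, by hours of Dox (blue points) and in XEN cells (red points), with grey lines through the group means. Ascl2, Cdx2, Eomes and Hand1 rise and fall within the series, Tead4 stays high into XEN cells and Tfap2c falls to 0.0202 and 0.0303 TPM there.

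Changes were tested with limma on log2(TPM + 1), with Benjamini-Hochberg adjustment over the 15057 genes whose mean reached 1 TPM in a group or more. A gene was called at an adjusted p under 0.05 and a log2 change above 1 in size. Cdx2 and Hand1 passed the filter on low values only through the groups in which they were high, so their being called somewhere in the series was to be foreseen. The comparisons with 0 h share the same 3 untreated libraries.

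Tead4 (mm10, chr6:128224288-128300823, minus strand), the DNA-binding partner of YAP1 and TAZ at the head of the trophectoderm cascade, was second to Tfap2c among the 8 in untreated cells and had the highest level of them from 48 h on. Its TPM were 15.6, 16.4 and 17.0 in untreated cells, 33.1, 36.3 and 29.1 by 48 h, and 54.0, 54.5 and 59.6 by 96 h. At 168 h they were 38.3, 38.1 and 40.7. Every library from 16 h on lay above the untreated ones. The log2 change from 0 h was 0.96 (SE 0.12, limma adjusted p = 1.74e-06) at 48 h, under the minimum, and 1.72 (SE 0.12, limma adjusted p = 2.45e-10) at 96 h. Tead4 was called at 72, 96 and 168 h. The step from 96 to 168 h, -0.51, had an adjusted p of 0.00225 and was too small to be called.

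Cdx2 (chr5:147300805-147307270, minus strand), the homeobox factor that defines trophectoderm, was the lowest of the 8 in untreated cells. It stood there at 0.152, 0.0305 and 0.0609 TPM. It reached 0.965, 1.31 and 0.772 TPM at 48 h and 2.23, 2.06 and 2.11 TPM at 72 h, then fell back to 0.407, 0.274 and 0.456 TPM at 168 h. The 72 h libraries lay above those of every other group, and even there Cdx2 was the lowest of the 6 tested factors. The mean at 72 h was 26.3 times that of untreated cells, a ratio that rests on values near the smallest steps of the table at 0 h. On the log2(TPM + 1) scale the change was 1.54 (SE 0.12, limma adjusted p = 8.86e-10) at 72 h and 1.07 (SE 0.12, limma adjusted p = 1.22e-07) at 96 h, the only times at which Cdx2 was called.

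Eomes (chr9:118478212-118486132, plus strand) encodes the T-box factor that trophoblast stem cells need. It overlaps an antisense gene, Gm33460, but reads were counted by strand. Its TPM were 1.32, 1.62 and 2.05 at 0 h and 1.36, 1.61 and 1.29 at 16 h. They were 3.90, 3.77 and 2.92 at 24 h and 8.40, 9.37 and 7.0 at 48 h. The 0 h and 16 h libraries overlapped, those of 24 h lay above both, and those of 48 h lay above all 3 groups. The level then stayed up, at 5.16, 6.66 and 10.1 TPM at 72 h and 8.03, 8.43 and 10.1 TPM at 96 h, and these groups overlapped each other. Against 0 h the log2 change was 1.80 (SE 0.17, limma adjusted p = 4.65e-08) at 48 h and 1.89 (SE 0.17, limma adjusted p = 9.86e-09) at 96 h. From 96 to 168 h Eomes fell by 1.11 (SE 0.17, limma adjusted p = 4.24e-05) to 3.54 ± 0.25 TPM (SD, n = 3).

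Elf5 (chr2:103411688-103450989, plus strand), the ETS factor that locks in the trophoblast fate, was listed at 0 in 9 of the 23 libraries, including all 3 of 72 h, and its highest value was 0.477 TPM in an untreated library. Tfap2a (chr13:40715302-40738376, minus strand), which encodes AP-2 alpha, lay between 0.182 and 0.994 TPM throughout. Both were below the filter on low values and were not tested.

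Tfap2c (chr2:172549593-172558622, plus strand), which encodes AP-2 gamma, was the most abundant member in untreated cells. Its TPM were 42.0, 42.4 and 30.4 in untreated cells, 18.8, 17.8 and 19.1 by 48 h, and 6.27, 8.23 and 9.88 by 96 h. At 168 h they were 1.57, 1.46 and 2.87. The mean at each time was below that of the time before. At 16 h every library already lay under the lowest untreated one, though 1 library of 24 h (31.3 TPM) lay above it, and the change at 16 h, -0.45, had an adjusted p of 0.222. Tfap2c was called lower from 72 h, and at 168 h the log2 change was -3.74 (SE 0.22, limma adjusted p = 1.13e-11). The call at 72 h rested on replicate 3 (9.63 TPM against 18.9 and 18.2), without which the change was -0.99 and no longer large enough. That library also had the highest summed level of 10 fibroblast genes at 72 h, 159.6 TPM against 63.8 and 73.7. The part of feeder RNA in the result was not tested.

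Ascl2 (chr7:142966829-142969264, minus strand), an imprinted gene needed for the spongiotrophoblast, was the first to be called. It stood at 3.62, 3.35 and 2.35 TPM in untreated cells and at 7.96, 8.15 and 12.1 TPM after 16 h. At 48 h it reached 12.7, 13.6 and 12.2 TPM. All libraries of 16, 24, 48 and 72 h lay above those of 0 h. Ascl2 was the only member called at 16 h, by 1.33 on the log2 scale (SE 0.20, limma adjusted p = 1.08e-04), when 1.97% of all genes tested were called higher. It was again the only one at 24 h (1.65, SE 0.20, limma adjusted p = 4.34e-06, beside 3.24% of genes). The level then dropped. At 96 h it was 2.65, 4.43 and 4.68 TPM, overlapping untreated cells (log2 change 0.25, limma adjusted p = 0.292). At 168 h it was 0.407, 0.619 and 0.477 TPM, under every untreated library (-1.44, SE 0.20, limma adjusted p = 2.46e-06).

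Hand1 (chr11:57828705-57832818, minus strand), which drives the differentiation of trophoblast giant cells, had the largest rise of the 8 on the log2(TPM + 1) scale. As a plain ratio of means Cdx2 rose more, 26.3 times against 22.4 times for Hand1. It stood at 0.670, 0.528 and 0.284 TPM at 0 h and 0.487, 0.324 and 0.832 TPM at 16 h. It was at 6.55, 7.63 and 6.54 TPM at 48 h and at 13.7, 11.2 and 8.31 TPM at 72 h. The 0 h and 16 h libraries overlapped, and each library of 72 h lay above those of 48 h, which in turn lay above both earlier groups. The log2 change was 2.41 (SE 0.25, limma adjusted p = 1.13e-07) at 48 h and 3.0 (SE 0.25, limma adjusted p = 2.84e-09) at 72 h. From 96 to 168 h Hand1 fell by 1.39 (SE 0.25, limma adjusted p = 1.72e-04). It ended at 1.31, 1.62 and 3.31 TPM, still above untreated cells in each library, with a change of 0.998 (limma adjusted p = 0.00121) that lay just below the minimum of 1. The highest of the 3 was replicate 3, which also had the most Pou5f1 RNA (111.9 TPM against 39.1 in both others) and the highest summed fibroblast level (296.7 TPM against 144.5 and 142.3). Their part in the Hand1 value was not tested.

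Set beside each other, the members called changed from time to time. At 48 h Ascl2, Eomes and Hand1 were called higher, 3 of the 6 tested, beside 9.14% of all genes higher and 7.26% lower. At 72 h all 6 were called, 5 higher beside 14.7% of genes and Tfap2c lower beside 11.5%. At 96 h Cdx2, Eomes, Hand1 and Tead4 were called higher (15.4% of genes) and Tfap2c lower (14.1%). At 168 h Tead4 alone was called higher, beside 22.6% of genes, and Ascl2 and Tfap2c lower, beside 16.5%. The median log2 change of the 6 was 1.46 at 72 h and 0.56 at 168 h, beside 0.02 and 0.09 over all genes tested. These counts and medians only describe the 6, since they hold Cdx2 and Hand1, which passed the filter only through the groups where they were high. At 168 h the 6 went both ways, from -3.74 to 1.21.

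**Figure D2:**
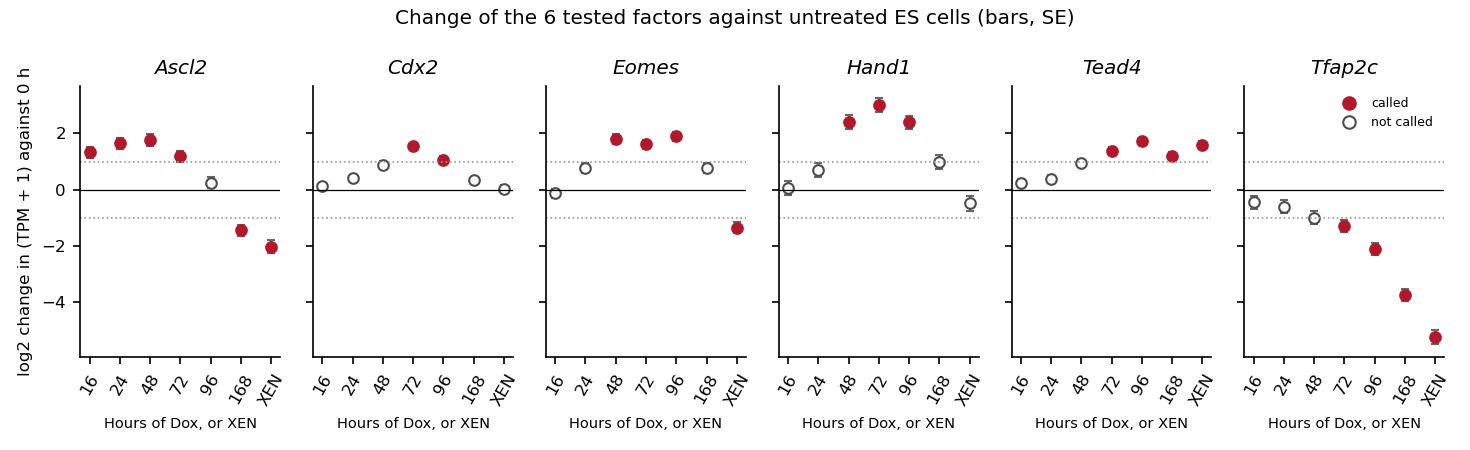
Log2 change in TPM + 1 against untreated cells (vertical axis; bars, SE) for the 6 factors tested, at each time of Dox and in XEN cells. Filled points were called, open points were not, and dotted lines mark a change of 1 in size. Ascl2 is called from 16 to 72 h and then on the other side of 0 at 168 h, and Tfap2c goes down at each time.

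Between neighbouring times, members were called at the first step (Ascl2, from 0 to 16 h), from 24 to 48 h and from 96 to 168 h. Hand1 (1.70) and Eomes (1.03) were called higher at 48 h against 24 h, beside 3.12% of genes. The Eomes call was lost without 24 h replicate 3 (0.93) or 48 h replicate 2 (0.94). From 96 to 168 h Ascl2 (-1.69), Tfap2c (-1.63), Hand1 (-1.39) and Eomes (-1.11) were called lower, beside 2.44% of genes. After rescaling of the libraries by median ratios the same 4 were called, although over all genes the split moved from 787 higher and 368 lower to 592 higher and 510 lower. No member was called from 16 to 24 h (0.352% of genes in either direction), from 48 to 72 h (3.33%) or from 72 to 96 h (1.71%). At an unadjusted p under 0.05 these 3 steps held 3, 4 and 5 of the 6 members, respectively. Over all 15057 genes tested, 2133, 6026 and 4858 had such a p.

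XEN cells show what the factors do in an established line of extra-embryonic endoderm. Tead4 was at 49.4 and 52.3 TPM there, above every untreated library (log2 change 1.58, SE 0.14, limma adjusted p = 3.57e-09), and was the only member called higher than at 0 h, beside 18.9% of genes. Tfap2c, Ascl2 and Eomes were called lower, beside 18.7% of genes. Tfap2c was at 0.0202 and 0.0303 TPM (-5.24, SE 0.25, limma adjusted p = 5.27e-13). Ascl2 was listed at 0 in both XEN libraries, and Eomes at 0.0910 TPM in the first and at 0 in the other. Hand1, at 0.121 TPM in the first and listed at 0 in the other, and Cdx2, at 0.162 and 0.0607 TPM, were not called against 0 h. Induced cells at 168 h thus held more of some members than XEN cells did: Eomes (-2.12 in XEN cells), Tfap2c (-1.50) and Hand1 (-1.49) were called lower in XEN cells than at 168 h, beside 9.17% of genes. The median of all genes was -0.14 in that comparison and -0.02 after rescaling, when the split went from 712 higher and 1380 lower to 924 higher and 1065 lower. The same 3 members were called after rescaling, at -2.0, -1.40 and -1.39. The 168 h and XEN cells also differ in strain, in growth medium, in the presence of Dox and in the inducible GATA6 cassette. None of these can be told apart from the cell state.

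To see which genes ran most like each member, Pearson correlations of the mean log2(TPM + 1) over the 8 groups were ranked among 11355 genes whose mean reached 5 TPM in some group. They describe 8 points from shared libraries and carry no test. For Cdx2 the closest were Krt7 (0.985), a keratin of trophoblast and other epithelia, Iqgap3 (0.983) and Echdc2 (0.973). For Hand1 they were Prss8 (0.993), Krt7 (0.99) and Slc35g1 (0.989), and the correlation between Cdx2 and Hand1 themselves was 0.968. Eomes ran most like Tbc1d14 (0.981), Echdc1 (0.980) and Nefm (0.977), and Ascl2 most like Ap3b2 (0.989), Foxh1 (0.988) and Idh3g (0.986). For Tfap2c the closest were Pak1, Arrb2 and Gm10451 (all 0.996), and for Tead4 Tex261 (0.996), Glyr1 (0.995) and Nagpa (0.991). Cdx2 and Hand1 thus shared a neighbour, whereas Tfap2c and Tead4 ran against each other (-0.727).

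Other genes of the trophoblast gave a mixed picture. Of 20 listed, 13 were tested, and 7 of these were called higher at 48 h, 8 at 72 h, and 5 at 168 h and in XEN cells, along with 1 called lower each time. Over all genes 9.14%, 14.7%, 22.6% and 18.9% were called higher in these comparisons. The keratin genes Krt8 and Krt18, which PrE cells also use, were called higher at each of these times, and Krt8 went from 7.58 ± 1.32 TPM in untreated cells to 175.7 ± 15.0 TPM by 72 h and 361.5 ± 10.5 TPM by 168 h (SD, n = 3 each). Cited1, a transcriptional coregulator of the placenta, reached 273.1 ± 184.5 TPM (SD, n = 3) at 168 h from 2.06 ± 0.66 TPM. Fgfr2, the FGF receptor of trophoblast stem cells, peaked early instead, at 77.9 ± 5.0 TPM (SD, n = 3) at 24 h, and was back at 11.9 ± 1.6 TPM at 168 h against 15.9 ± 6.1 TPM at 0 h. Gata2, a partner of the giant cell programme, was called only at 72 h (9.11 ± 4.19 TPM against 3.75 ± 1.58 TPM, groups overlapping). Gata3, which works beside Cdx2 in the trophectoderm, had no group mean above 0.965 TPM and was not tested. Cdh3, which encodes P-cadherin, was the 1 called lower at each of these times (-1.93 at 168 h). The hormone and syncytial genes Prl3d1, Tpbpa, Ctsq, Gcm1, Syna and Synb had no group mean above 0.5 TPM.

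The number of genes around TEAD4 called higher grew with time, as did that of all genes. Of 15 genes of the Hippo pathway and TEAD partners, all tested, 4 were called higher at 48 h (9.14% of all genes), 7 at 72 h (14.7%) and 11 at 168 h (22.6%). None was called lower at these times, although Nf2 had an unadjusted p under 0.05 in that direction at each of them, Ankrd1 at 48 h and Vgll4 at 168 h. In XEN cells against 0 h 10 were called higher (18.9% of all genes) and Nf2, an upstream activator of Hippo signalling, lower (-1.05). Amot, which holds YAP1 at cell junctions, rose most at 72 h, from 2.05 ± 0.50 to 111.0 ± 19.5 TPM (SD, n = 3 each). Ccn2 and Ankrd1, transcriptional targets of YAP1 and TAZ, were near their untreated level at 72 h and rose by 168 h, Ccn2 from 41.7 ± 9.1 to 1076 ± 221 TPM and Ankrd1 from 1.3 ± 0.74 to 42.0 ± 14.5 TPM (SD, n = 3 each). Among the other TEAD genes, Tead1 (1.84) and Tead3 (1.36) were called higher at 168 h, whereas Tead2 (0.61) and the coactivator gene Yap1 (0.63) changed by less than the minimum. After rescaling, which lowered the median of all genes at 168 h from 0.09 to -0.05, the change of Tead4 was 1.03, still above the minimum.

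**Figure D3:**
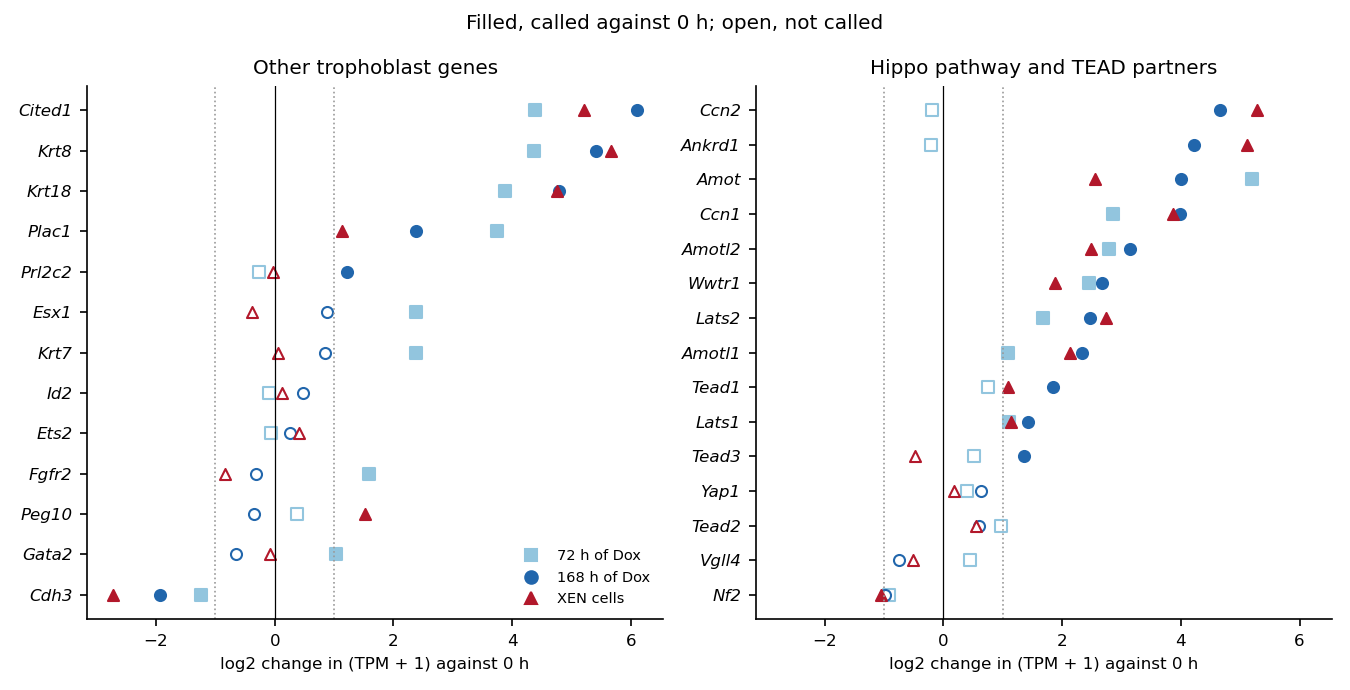
Log2 change in TPM + 1 against untreated cells (horizontal axes) for the 13 tested trophoblast genes and the 15 Hippo and TEAD partner genes at 72 h (light squares), 168 h (dark circles) and in XEN cells (red triangles). Filled marks were called, open marks were not, and dotted lines mark a change of 1 in size. Ccn2 and Ankrd1 are near 0 at 72 h and above 4 at 168 h, and Fgfr2, Esx1 and Krt7 are called at 72 h and not at 168 h.

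Markers of other cells were measured in the same libraries. Of 10 mesoderm and primitive streak genes 4 were tested. None was called at 48 or 72 h, when Eomes and Hand1 were high, or at 16 or 24 h. Gsc was higher by 0.93 at 16 h (limma adjusted p = 1.36e-04) and by 0.69 at 24 h (limma adjusted p = 0.00123), under the minimum. Fgf8 was higher by 0.48 at 24 h (limma adjusted p = 0.0145) but not at 16 h, and Tbx6 and Kdr were not higher at either time. At 48 h 1 of the 4 had an unadjusted p under 0.05 (higher), and at 72 h 2 did (1 higher and 1 lower). Over all 15057 genes tested, 8784 and 10284 had such a p at these times. Kdr, a receptor of early mesoderm and endothelium, was called higher at 96 h (1.93, limma adjusted p = 9.69e-08), when Eomes peaked, and at 168 h. T and Mixl1, which define the primitive streak, had no group mean above 0.639 TPM (T, at 16 h) and 0.480 TPM (Mixl1, at 24 h). The summed level of the 10 genes was 2.56 to 2.98 TPM at 72 h and 5.46 to 5.86 TPM at 96 h against 2.18 to 2.51 TPM at 0 h. Of 7 pluripotency genes, 6 were called lower at 48 h and 7 at 168 h and in XEN cells (7.26%, 16.5% and 18.7% of all genes). Of 10 fibroblast genes, 1 was called higher at 48 h, 2 at 72 h, 7 at 168 h and 1 in XEN cells (9.14%, 14.7%, 22.6% and 18.9% of all genes), and their summed level was 38.9 to 117.2 TPM at 0 h, 63.8 to 159.6 TPM at 72 h and 142.3 to 296.7 TPM at 168 h. The part of mesoderm or feeder RNA in the values of the members was not tested.

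Knockdown of Oct4 during GATA6 induction left Ascl2, Hand1 and Tfap2c higher in every same-numbered pair of libraries, and Eomes lower in every pair. For Eomes the smallest of these log2 differences was -0.026, and it was called in neither fit below. How many of all genes moved alike in 6 of 6 pairs was not counted. Pou5f1 itself stood at 331.1 ± 44.4 TPM in siOct4 against 956.8 ± 183.5 TPM in siCTL (SD, n = 6 each; log2 change -1.52, limma adjusted p = 5.21e-05), lower in 6 of 6 pairs. Gata6 was also lower in 6 of 6 pairs, at 85.9 ± 26.4 against 121.1 ± 38.6 TPM (-0.50, limma adjusted p = 0.326). That value counts the transgene too. The paper measured endogenous Gata6 alone, by its 5′UTR, and reports it as lower upon the knockdown. The siRNA comparison called a gene at an adjusted p under 0.05, over the 6264 genes tested, and a log2 change above 0.5 in size, which is how the fold change minimum of the study was read. Same-numbered libraries of siCTL and siOct4 deviated together on average, though the range of other pairs overlapped theirs. A fit in which that number is a block (the replicate block) is therefore given where it changes a call.

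Ascl2 was the only member called without the block. Its TPM ranged from 2.06 to 5.79 in siCTL (median 3.26) and from 5.63 to 15.3 in siOct4 (median 7.27), and the ranges overlapped only in siCTL 5. In the induction series Ascl2 was at 12.2 to 13.6 TPM by 48 h, above every siCTL library, and at 2.35 to 3.62 TPM at 0 h. Hand1 likewise lay above siCTL at 48 h in that series, whereas Cdx2, Eomes, Tead4 and Tfap2c overlapped siCTL. The series were not compared by a test, and only the siRNA cells were nucleofected. The log2 change of Ascl2 between siOct4 and siCTL was 1.20 (SE 0.28, limma adjusted p = 0.0343, or 0.00222 with the block). At large, 0.942% of genes were called higher and 1.72% lower, or 2.43% and 6.15% with the block. The call did not stand firm without the block: it was lost when libraries 5 and 6 (1.05, limma adjusted p = 0.112) or libraries 3 and 4 (1.15, limma adjusted p = 0.0789) were left out of both groups, and in 7 of the 12 fits that left out 1 library, namely siCTL 1, 2, 4 or 6 or siOct4 4, 5 or 6 (limma adjusted p = 0.0618 to 0.0772). With the block, Ascl2 was called without libraries 5 and 6 (limma adjusted p = 0.0235) and without libraries 3 and 4 (limma adjusted p = 0.0254). With consecutive libraries averaged, 3 values per group, none of the 6264 genes was called without the block (437 had an unadjusted p under 0.05, Ascl2 and Hand1 among them), while Ascl2 was called with it (limma adjusted p = 0.0200).

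Hand1 and Tfap2c were called only with the block. Hand1 ranged from 1.27 to 3.91 TPM in siCTL (median 3.57) and from 2.80 to 38.1 TPM in siOct4 (median 6.70), with siOct4 5 and 6 far above the rest at 38.1 and 34.3 TPM. Its log2 change was 1.54 (SE 0.52), with a limma adjusted p of 0.164 without the block and 0.0233 with it. The mean difference was 2.93 in pairs 5 and 6 and 0.84 in pairs 1 to 4, so the size of the Hand1 change rests on those pairs. With the block, the Hand1 call was lost without libraries 5 and 6 (0.84, limma adjusted p = 0.0622) and without libraries 3 and 4 (1.84, limma adjusted p = 0.0527), and with consecutive libraries averaged (limma adjusted p = 0.172). Tfap2c ranged from 2.84 to 23.2 TPM in siCTL (median 8.29) and from 8.44 to 49.7 TPM in siOct4 (median 16.8). Both groups were spread widely and overlapped, yet the difference within pairs was even, from 0.79 to 1.43. The log2 change of Tfap2c was 1.11 (SE 0.49), with a limma adjusted p of 0.323 without the block and 0.00112 with it. That call stood with the block when libraries 5 and 6 (1.05, limma adjusted p = 0.0172) or libraries 3 and 4 (1.09, limma adjusted p = 0.0128) were left out, and with consecutive libraries averaged (limma adjusted p = 0.0155).

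**Figure D4:**
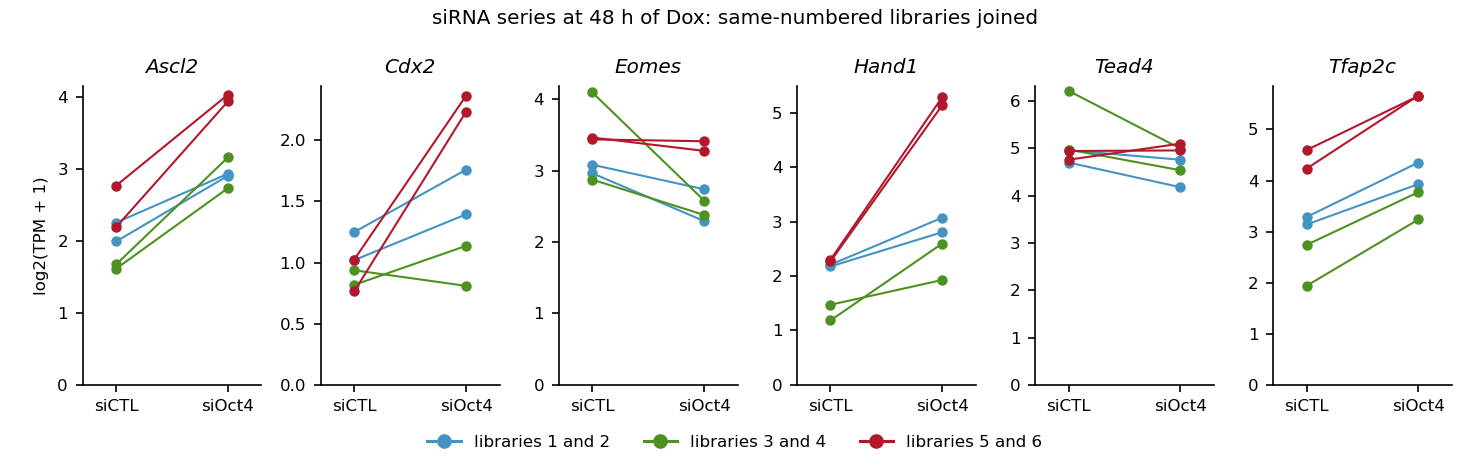
Log2(TPM + 1) of the 6 factors in the siRNA table (vertical axes, from 0, scaled separately) in siCTL and siOct4 at 48 h of Dox, with lines joining same-numbered libraries and colours marking libraries 1 and 2, 3 and 4, and 5 and 6. All lines go up for Ascl2, Hand1 and Tfap2c and down for Eomes, and the lines of libraries 5 and 6 are the steepest for Hand1 and Cdx2.

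The other 3 members were called in neither fit, and of them Cdx2 was called higher when the block and rescaling by median ratios were combined (0.69, limma adjusted p = 0.0459). Cdx2, the factor that OCT4 is known to oppose, ranged from 0.699 to 1.38 TPM in siCTL and from 0.753 to 4.15 TPM in siOct4. It was higher in 5 of 6 pairs (0.65, SE 0.25, limma adjusted p = 0.248, or 0.0935 with the block), and again the difference was larger in pairs 5 and 6 (1.41) than in pairs 1 to 4 (0.27). Eomes went the other way, 6.34 to 16.1 TPM in siCTL against 3.91 to 9.65 TPM in siOct4 (-0.54, SE 0.26, limma adjusted p = 0.393, or 0.129 with the block). Tead4 was lower in 4 of 6 pairs (-0.34, SE 0.25, limma adjusted p = 0.628). None of Cdx2, Eomes and Tead4 was called without libraries 5 and 6 (0.27, -0.76 and -0.59) or without libraries 3 and 4 (0.92, -0.31 and -0.09), with or without the block. Across all genes the median change was -0.12, and 0.01 after rescaling, when the split of calls moved from 59 higher and 108 lower to 144 higher and 153 lower. Rescaled, the changes were 1.32 for Ascl2, 1.63 for Hand1, 1.26 for Tfap2c, 0.69 for Cdx2, -0.41 for Eomes and -0.19 for Tead4, and Hand1 was called together with Ascl2 (limma adjusted p = 0.0420).

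Of the other trophoblast genes, 10 were in the siRNA table. Krt18, Krt8, Plac1 and Gata2 were called higher in siOct4, and with the block Krt7 too, while Fgfr2 was then called lower (-0.61). Over all genes 0.942% were called higher without the block, and 2.43% higher and 6.15% lower with it. Krt18 had no overlap between the groups, at 51.8 to 84.5 TPM in siCTL and 214.4 to 534.2 TPM in siOct4 (log2 change 2.20, SE 0.24, limma adjusted p = 2.97e-04). The differences for Krt8, Krt18 and Gata2 were likewise larger in pairs 5 and 6 (2.63, 3.23 and 2.63) than in pairs 1 to 4 (1.25, 1.68 and 1.07). Among 11 Hippo and TEAD partner genes none was called or had an unadjusted p under 0.05, and with the block only Amot was called, lower. None of the 10 PrE markers was called without the block, when 5 had an unadjusted p under 0.05, all lower, and 4 were called lower with it. Over all 6264 genes tested, 867 had such a p without the block, in either direction, and 6.15% were called lower with the block. The summed level of the 6 fibroblast genes in that table was 219.1 and 198.0 TPM in siOct4 5 and 6, against 41.7 and 49.9 TPM in siCTL 5 and 6. Libraries 1, 2 and 4 went the other way, at 66.9, 62.5 and 32.9 TPM in siOct4 against 195.0, 181.4 and 217.1 TPM in siCTL. For libraries 3 it was 40.5 TPM in siOct4 and 31.1 TPM in siCTL. The same-numbered libraries thus differed in this level, and its part in these results was not tested.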

How the data were processed

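RNA was measured by stranded polyA RNA-seq in 23 libraries of the induction series and 12 of the siRNA series, grouped by their titles. STAR (mm10) and RSEM (by strand) were the authors' tools for the paired-end reads, and the deposited unit is TPM, computed by the authors after omitting outliers seen in a principal component analysis. Versions and the gene annotation are not given in the sources used here. Values fell on steps of 0.0101 to 0.0116 TPM, the rounding of the estimates, so TPM keep no record of depth and the spread between replicates is the only error given. The siRNA table also held the authors' group means and text classes from their own tests, which were not used. All per-sample columns were matched to a sample.

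Where a symbol stood on more than 1 row (60 symbols, no member), the one with the higher mean was used. Tests used limma 3.58.1 under R 4.3.3, with robust and trended eBayes, on log2(TPM + 1), a scale that understates changes of low genes, with Benjamini-Hochberg adjustment over genes whose mean reached 1 TPM in some group, 15057 and 6264 in the 2 tables. One fit held all groups of the induction series, another the 12 siRNA libraries. The thresholds followed the study, whose siRNA minimum is given as a fold change and was read as log2. Scripts were tested on simulated data. Alternatives were median-of-ratios rescaling, a pseudocount of 0.1, no filter or a mean of at least 5 TPM, no fold change minimum, the replicate number as a block and each library left out. Consecutive siRNA libraries averaged and libraries 3 and 4 or 5 and 6 left out (each also with the block), and the block with rescaling were added after seeing the data.

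Replicate numbers came from the titles. In the siRNA series, same-numbered libraries tended to deviate together from their group means (correlations of 0.236 to 0.707 in 6 pairs, mean 0.33). The 30 other pairs ran from -0.556 to 0.459 with a mean of -0.06, so the ranges overlapped. Apart from pair 3 (0.707), no same-numbered pair was above 0.274. The numbers were taken to pair the libraries. The members and the gene lists (other trophoblast genes, Hippo pathway and TEAD partners, paralogs of the members, PrE, pluripotency, mesoderm and fibroblast markers) were chosen with earlier results of these data known. Named from each list were up to 3 called genes with the largest rise and 3 with the largest fall at 168 h, and 13 genes set by name. Krt7, Esx1, Plac1, Nf2, Vgll4, Kdr, Gsc, Fgf8, Tbx6, Elf2 and Tbx3, and Gcm1, Tpbpa, Prl3d1, Ctsq, Syna and Synb, were chosen after their values were seen. Gene positions are from GENCODE M21 (mm10) and promoters from RefSeq (GRCm38.p6), whose table held 5 of the 8 members. Python 3.11.15 with numpy 2.4.6, pandas 2.3.3 and matplotlib 3.10.9 was used for summaries and figures.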

Additional observations from a re-analysis of the deposited data

Results flagged for a closer look

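Tead4 in siCTL library 4 stood apart from the other 5 siCTL libraries, at 6.22 on the log2(TPM + 1) scale (73.3 TPM) against 4.70 to 4.97, a gap of 0.82 of the whole range. In the same library the summed level of the 10 PrE markers was 9269 TPM, against 4402 to 5911 TPM in the other siCTL libraries, and Eomes was the highest of its group, at 16.1 TPM. Their relation was not tested. Without siCTL 4 the change of Tead4 in siOct4 was -0.11 (limma adjusted p = 0.904), against -0.34 with it. Each of the 6 factors was screened in siCTL and in siOct4, 12 sets of 6 values, in which about 0.6 such values would come by chance.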

How the results depend on the processing

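Calls of single members turned mostly on the minimum change and on the siRNA pairs. With no minimum, 6 members were called at 24, 48 and 168 h against 0 h, and 5 between XEN cells and 168 h. The steps held 1 (16 to 24 h), 4 (24 to 48 h), 3 (48 to 72 h) and 3 (72 to 96 h). Calls over all 15057 genes then numbered 2511 rises and 1782 falls at 24 h. At 48 h these were 4164 and 3929, at 168 h 6184 and 5102, and in XEN cells against 168 h 2676 and 4849. The steps, in order, had 248 and 142, 2637 and 3008, 2455 and 1995, and 1258 and 1219. Calls were thus common among all genes without the minimum. With a pseudocount of 0.1 the counts of members were 4, 5 and 6 at 24, 48 and 168 h, 1 from 16 to 24 h, 1 from 48 to 72 h, 1 from 72 to 96 h and 5 between XEN cells and 168 h. The share over all genes is not given for that setting. Leaving out 1 library gave 3 to 5 members at 48 h, 0 to 1 from 16 to 24 h (Eomes, without 24 h replicate 3), 1 to 2 from 24 to 48 h, 0 to 2 from 72 to 96 h (Ascl2 and Tfap2c without 72 h replicate 3) and 0 to 1 in siOct4. In siOct4, 2 members were called after rescaling, 3 with the replicate block, 4 with both, and 0 with consecutive libraries averaged, without libraries 5 and 6 or without libraries 3 and 4, and 2 (Ascl2 and Tfap2c) with the replicate block in each of these 3 settings. The cause was not tested. Changes that turned sign were all small and not called: Hand1 at 16 h (-0.082 to 0.152, turned without 0 h replicate 3, -0.059, or 16 h replicate 3), Ascl2 from 24 to 48 h (-0.006 to 0.202, without 24 h replicate 3), Eomes from 48 to 72 h (-0.422 to 0.003, without 72 h replicate 1) and Cdx2 in XEN cells against 0 h (-0.026 to 0.105, without XEN replicate 1). Of all single changes under all alternatives, 1049 kept their direction and side of the thresholds, 62 became called, 13 were lost and 5 turned. In the induction series same-numbered libraries shared only a number (mean correlation of deviations 0.03, against -0.02 for others), and the replicate block left the number of members called unchanged in each comparison. Depth is unknown, and values of Cdx2, Elf5 and Tfap2a lie near the limit of what the table resolves.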

Other observations

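Of 16 genes related to the members by sequence, 6 were tested. Elf5 itself was near 0, but the related ETS genes Elf1, Elf2, Elf3 and Elf4 were all called higher at 168 h (22.6% of all genes), Elf4 from 0.738 ± 0.075 to 18.3 ± 2.1 TPM and Elf1 from 4.95 ± 0.95 to 44.6 ± 4.3 TPM (SD, n = 3 each). Elf3, an epithelial ETS factor, peaked at 72 h as Cdx2 and Hand1 did, being at 22.5 ± 3.5 TPM before Dox, 289.4 ± 19.9 TPM after 72 h and 112.0 ± 17.6 TPM after 168 h (SD, n = 3 each). Unlike them, Elf3 was called higher at each time from 16 h (1.29) to 168 h (2.26). It was called lower in XEN cells (3.24 ± 0.08 TPM, SD, n = 2) than at 0 h. Tbx3, a T-box gene related to Eomes, was called higher at 16, 24 and 48 h (1.37, 1.51 and 1.12) and stood at -0.42 at 168 h. Cdx1 was called lower at 168 h, but its untreated libraries were spread widely (3.63 ± 3.78 TPM, SD, n = 3). In siOct4 none of the 5 paralogs listed was called without the replicate block, when Elf1, Elf3 and Tbx3 had an unadjusted p under 0.05, and these 3 were called lower with it. Over all 6264 genes tested, 867 had an unadjusted p that low without the block, and 6.15% were called lower with the block. Hand2 and Tfap2b, paralogs of Hand1 and of Tfap2a and Tfap2c, had group means of at most 0.518 and 0.118 TPM at 0, 48, 72 and 168 h and in XEN cells.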
